A study of Mus musculus with 12 samples.

Results

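Adipokines are proteins that fat cells make and mostly release, and 9 genes usually counted among them were followed here through the first days of adipocyte formation with and without PRMT1. The genes were chosen by name from the 39423 genes of the expression table: Adipoq (adiponectin), Retn (resistin), Lep (leptin), Adig (adipogenin), Rbp4 (retinol binding protein 4), Lcn2 (lipocalin 2), Nampt (visfatin), Rarres2 (chemerin) and Agt (angiotensinogen). Each of the 9 names was found once. The cells were 3T3-L1, a mouse preadipocyte line, transfected with a control siRNA (siCtrl, labelled NC) or an siRNA against the arginine methyltransferase PRMT1 (siPRMT1, labelled KD). All 4 groups had received DMI (labelled MDI), the hormone cocktail of insulin, dexamethasone and 3-isobutyl-1-methylxanthine, for 24 h or 72 h, so no group was free of the hormones and no undifferentiated culture was part of the comparison. Each group held 3 mRNA libraries. The methods do not name which of the PRMT1 siRNAs was sequenced, and while they speak of independent experiments for the study in general, neither they nor the labels say that the 3 libraries of a group came from separate cultures. If they did not, p-values measure the spread between these libraries, which may be technical. The question was how the adipokine transcripts rise during DMI treatment and how far PRMT1 knockdown changes them.

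Preadipocytes become adipocytes through a cascade in which C/EBPβ and C/EBPδ are followed by PPARγ and C/EBPα, and these later factors switch on the genes of the mature fat cell. Adiponectin raises insulin sensitivity and leptin reports fat stores to the brain, and both are made almost only by adipocytes. Resistin is an adipocyte product in mice, and adipogenin is a small membrane protein of fat cells. Lipocalin 2, visfatin, chemerin and angiotensinogen are made by many cell types: lipocalin 2 binds iron-carrying siderophores, visfatin is the rate-limiting enzyme of NAD salvage, chemerin is a chemoattractant and angiotensinogen is the precursor of the angiotensins. Retinol binding protein 4 carries retinol in blood and comes mainly from the liver.

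The libraries held 15116462 to 42357137 counts on genes, so a gene with 0 counts could still hold up to 3, or 0.0708 to 0.198 CPM (counts scaled to the library total), by counting error alone. Levels are given as deposited FPKM, counts per length of the gene and depth of the library, which compares genes of different length. Comparisons were made on the counts with edgeR's quasi-likelihood test, and calls needed both an adjusted p below 0.05 and a log2 fold change of more than 0.5 in size. The siCtrl library 3 at 24 h stood apart from its replicates, with a chi-square per gene of 50.6 and 30.8 against libraries 1 and 2, while all other replicate pairs lay between 4.14 and 15.8. Without it, edgeR called 504 genes higher and 369 lower after knockdown at 24 h in place of 267 and 220, and values without it are given beside the results that use it. Prmt1 was 82.9, 83.4 and 91.3 FPKM in siCtrl and 43.8, 38.6 and 41.4 FPKM in siPRMT1 cells at 24 h. At 72 h it was 111, 120.4 and 140.3 FPKM in siCtrl and 62.0, 71.7 and 68.5 FPKM in siPRMT1 cells. The knockdown thus left Prmt1 transcript at both times, with log2 fold changes of -1.11 (adjusted p = 9.8e-04, edgeR) and -0.88 (adjusted p = 1.2e-05). The 6 adipocyte markers (Fabp4, Plin1, Cidec, Lipe, Lpl, Cd36) summed to 112 to 119 FPKM in siCtrl libraries at 24 h and 2530 to 2700 FPKM at 72 h, and the 5 preadipocyte markers (Dlk1, Pdgfra, Cd34, Ly6a, Thy1) to 585 to 615 and 96.0 to 102 FPKM.

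Only part of the 9 adipokines was active at these times. Rbp4 (chromosome 19, 38116620 to 38125321, minus strand, with this and later gene positions from RefSeq on GRCm38) had 0 counts in all 12 libraries, and the hepatocyte markers Ttr, which encodes its partner transthyretin in blood, and Serpina1a were at 0 as well. Lep (chromosome 6, 29060221 to 29073876, plus strand) had 0 counts in all 6 libraries at 24 h. At 72 h it was listed at 0.15, 0.12 and 0.19 FPKM in siCtrl libraries (10, 6 and 15 counts) and 0.10, 0.13 and 0.07 FPKM in siPRMT1 libraries (7, 11 and 6 counts). Leptin mRNA was thus at the edge of detection after 72 h. The remaining 7 genes were measured in at least 1 condition at well over 100 counts per group, and 5 of them (Retn, Lcn2, Nampt, Rarres2 and Agt) had at least 10 counts in every library.

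**Figure D1:**
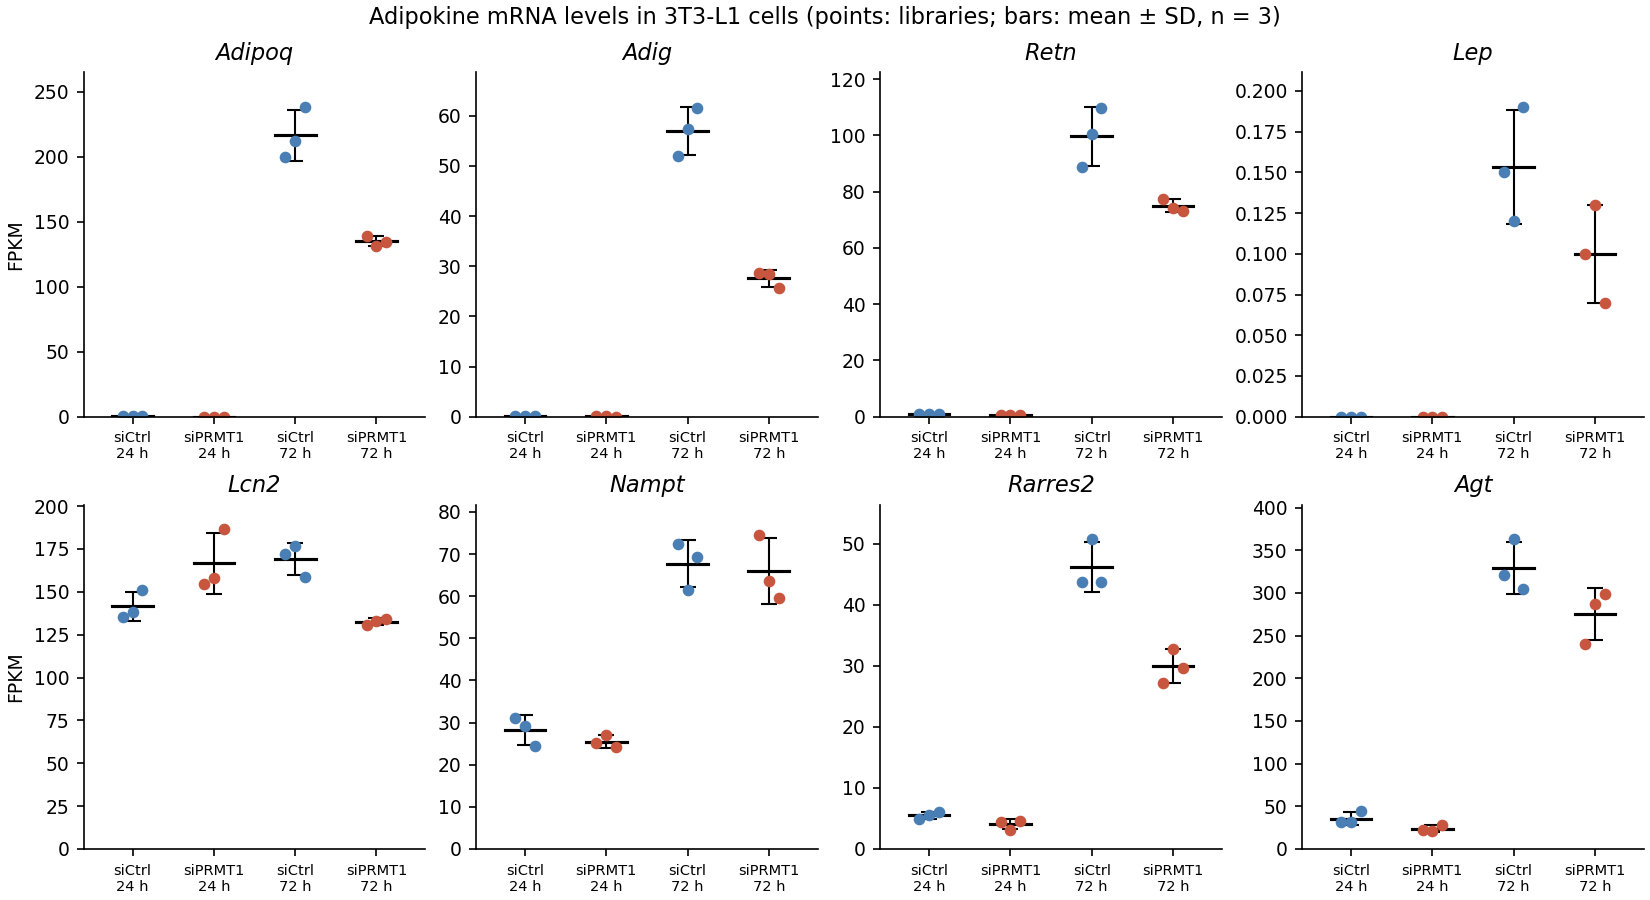
Deposited FPKM of 8 adipokine genes (y axis, a separate linear scale per gene, each from 0) in the 4 conditions, with 1 point per library and bars for the mean ± SD of 3 libraries. Rbp4, at 0 counts in all 12 libraries, is not drawn. Adipoq rises from under 1 FPKM at 24 h to 199.6 to 238 FPKM in siCtrl libraries at 72 h, whereas Lcn2 lies between 131 and 187 FPKM in every library.

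The adipokine transcripts changed order between 24 h and 72 h. In siCtrl cells at 24 h, Lcn2 was the most abundant at 142 ± 8.26 FPKM (SD, n = 3), followed by Agt at 35.5 ± 7.36 and Nampt at 28.2 ± 3.51 FPKM, whose libraries overlapped. Rarres2 was at 5.48 ± 0.631, Retn at 1.0 ± 0.111, Adipoq at 0.343 ± 0.139 and Adig at 0.0967 ± 0.0462 FPKM, each without overlap with its neighbour in the order. In siCtrl cells at 72 h, Agt led at 330.0 ± 30.6 FPKM, followed by Adipoq at 216 ± 19.6, Lcn2 at 169 ± 9.26, Retn at 99.6 ± 10.4, Nampt at 67.7 ± 5.58, Adig at 56.9 ± 4.80, Rarres2 at 46.1 ± 4.10 and Lep at 0.153 ± 0.0351 FPKM. No neighbours in that order overlapped. With PRMT1 depleted, the order at 72 h was Agt, Adipoq, Lcn2, Retn, Nampt, Rarres2, Adig and Lep, and 3 neighbouring pairs overlapped: Adipoq and Lcn2, Retn and Nampt, and Rarres2 and Adig.

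Together, the 9 genes reached 212 ± 12.8 FPKM in siCtrl and 221 ± 20.6 FPKM in siPRMT1 cells at 24 h, and 986 ± 36.6 and 742 ± 20.1 FPKM at 72 h (SD, n = 3 each). Lcn2 made up 66.7% ± 0.392 of the sum in siCtrl and 75.4% ± 0.989 in siPRMT1 cells at 24 h, with no overlap of the libraries. At 72 h, its share was 17.2% ± 1.01 and 17.9% ± 0.254, which overlapped. Agt supplied 16.7% ± 2.39 and 10.8% ± 0.882 of the sum at 24 h, without overlap, and 33.4% ± 2.36 and 37.1% ± 3.20 at 72 h, which overlapped. Shares of a common sum are tied, so a higher share of a gene goes with lower shares of others. Adipoq supplied 22.0% ± 1.89 of the sum in siCtrl and 18.2% ± 1.02 in siPRMT1 cells at 72 h, and Adig 5.77% ± 0.413 and 3.73% ± 0.301, neither with overlap.

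**Figure D2:**
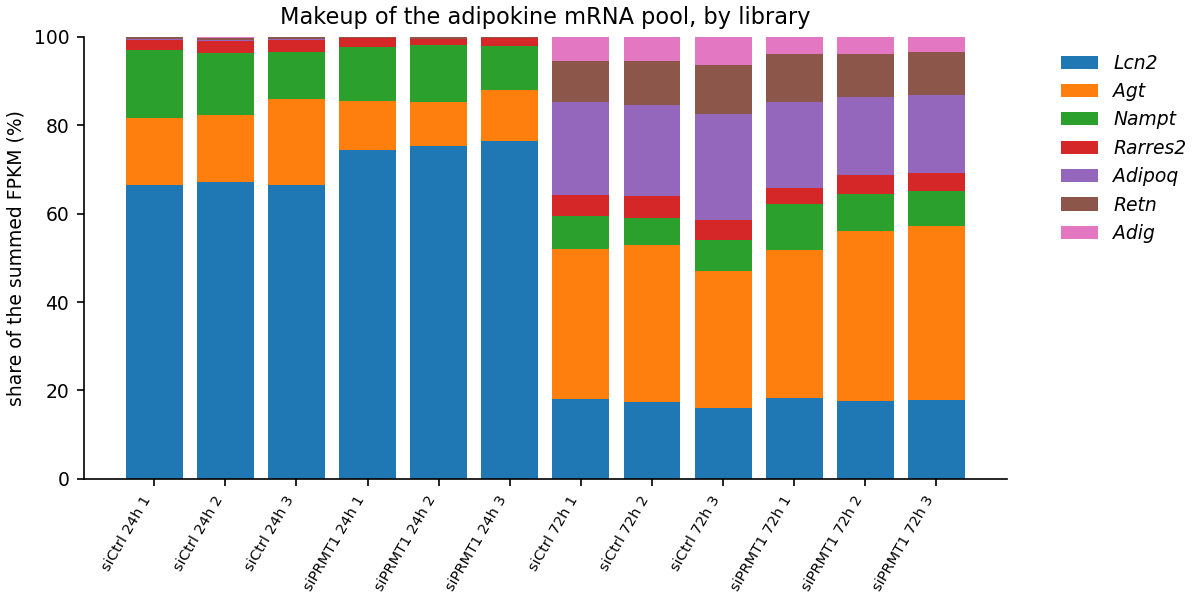
Share of each adipokine gene in the summed FPKM of the 9 genes (y axis, percent), with 1 stacked bar for each of the 12 libraries. Lcn2 holds 66.4% to 76.4% of the sum in the 6 libraries at 24 h, and Agt holds 30.9% to 39.5% in the 6 libraries at 72 h.

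Between 24 h and 72 h of DMI, 4 of the 5 adipokines with counts in every library rose in siCtrl cells, and 0 were called lower (0 also at an unadjusted p under 0.05 and by DESeq2). Over all 13829 genes tested, 22.7% were called higher and 20.4% lower. In siPRMT1 cells the count was also 4 higher and 0 lower (1 lower, Lcn2, at an unadjusted p under 0.05, and 0 by DESeq2), with 19.0% of 14224 genes called higher and 17.4% lower. The genes were Retn, Agt, Rarres2 and Nampt in both. The knockdown and time comparisons share libraries, so these values are given side by side.

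Retn (chromosome 8, 3655770 to 3659818, plus strand) rose most among the 5, with a log2 fold change of 6.58 (SE 0.148, adjusted p = 1.4e-09, edgeR) in siCtrl and 6.79 (SE 0.110, adjusted p = 2.0e-14) in siPRMT1 cells. Agt (chromosome 8, 124556587 to 124569706, minus strand) rose by 3.14 (SE 0.149, adjusted p = 1.1e-07, edgeR) and 3.51 (SE 0.107, adjusted p = 6.8e-12) on the log2 scale. For Rarres2 (chromosome 6, 48569696 to 48572845, minus strand) the rise was 3.01 (SE 0.134, adjusted p = 7.4e-08, edgeR) in siCtrl and 2.88 (SE 0.128, adjusted p = 2.8e-10) in siPRMT1 cells. Nampt (chromosome 12, 32820335 to 32853369, plus strand) rose least of the 4, 2.29-fold in siCtrl (adjusted p = 6.2e-06, edgeR) and 2.56-fold in siPRMT1 cells (adjusted p = 7.3e-09). Without siCtrl library 3 at 24 h all 4 were called in siCtrl cells as well, with log2 fold changes of 6.59 for Retn, 3.32 for Agt, 3.09 for Rarres2 and 1.09 for Nampt (adjusted p = 1.1e-08 for Nampt and smaller for the others, edgeR).

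Lcn2 (chromosome 2, 32384637 to 32387739, minus strand) was already at a high level at 24 h, and its change after that was not called. Its log2 fold change from 24 h to 72 h was 0.19 (SE 0.0859, adjusted p = 0.0851, edgeR) in siCtrl cells, and 0.23 (adjusted p = 0.0111) without siCtrl library 3 at 24 h. In siPRMT1 cells it was -0.34 (SE 0.0690, adjusted p = 6.9e-04, edgeR), smaller than the fold change needed for a call.

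Adipoq, Adig and Lep had too few counts at 24 h for a fitted fold change with an error, so their rise is given from the counts summed over 3 libraries and scaled by the library totals. Adipoq (chromosome 16, 23146536 to 23157968, plus strand) had 32 counts at 24 h and 15889 at 72 h in siCtrl cells, a 715-fold difference (95% counting interval 506 to 1050, exact binomial). In siPRMT1 cells it went from 7 to 12005 counts, a 1770-fold difference (856 to 4390). Adig (chromosome 2, 158502612 to 158508198, plus strand) went from 5 to 2134 counts in siCtrl (614-fold, 263 to 1890) and from 2 to 1261 counts in siPRMT1 cells (ratio 649, 179 to 5360). Set against a floor of 3 counts over the group at 24 h, Lep was 14.9-fold higher at 72 h in siCtrl cells. In siPRMT1 cells it was 8.23-fold higher. The 31 and 24 counts at 72 h carry counting error of their own, so neither value is a strict lower bound. The siCtrl ratio was 858 (555 to 1400) for Adipoq and 576 (225 to 2120) for Adig without siCtrl library 3 at 24 h. These intervals cover counting error only.

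At 72 h, PRMT1 knockdown lowered 3 of the 7 adipokines tested, Adig, Adipoq and Rarres2, and 0 were called higher. Over all 14039 genes tested, 3.80% were called lower and 2.84% higher, and the median log2 fold change was 0.0073. In 6 of the 7 genes all 3 siPRMT1 libraries lay below all 3 siCtrl libraries, which held for 17.5% of all genes tested, and in 0 of the 7 they lay above, against 16.7%. Before adjustment, 6 had p below 0.05 with lower and 0 with higher values, and DESeq2 called 3 lower and 0 higher. The shares of all genes at these settings were not taken, so the counts cannot be set against them. The libraries of Nampt overlapped.

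Adig fell most. It was 51.9, 57.3 and 61.5 FPKM in siCtrl and 28.7, 28.5 and 25.7 FPKM in siPRMT1 libraries. The log2 fold change was -1.05 (95% CI -1.25 to -0.85, adjusted p = 4.2e-06, edgeR), and the lowest siCtrl library was well above the highest siPRMT1 library. Adipoq, which encodes the most abundant hormone of mature fat cells, was 199.6, 212 and 238 FPKM in siCtrl and 139, 131 and 134 FPKM in siPRMT1 libraries. Its log2 fold change was -0.69 (95% CI -0.85 to -0.52, adjusted p = 2.7e-05, edgeR). The 3 siPRMT1 libraries agreed closely for Adipoq, with an SD of 3.98 FPKM against 19.6 FPKM in siCtrl cells.

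Rarres2 was 43.7, 50.8 and 43.7 FPKM in siCtrl and 27.2, 32.8 and 29.7 FPKM in siPRMT1 libraries, with a log2 fold change of -0.63 (95% CI -0.83 to -0.42, adjusted p = 3.5e-04, edgeR). Of the 880 exon bases of Rarres2, 328 (37.3%) overlap exons of Lrrc61 on the opposite strand. The sources used here do not give a strand setting for the counting, so part of the Rarres2 counts could belong to Lrrc61, which was listed at 2.61 to 4.11 FPKM in the 12 libraries. Each of the 3 calls, Adig, Adipoq and Rarres2, was made in all 6 fits that left out 1 library.

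Retn and Lcn2 were lower in siPRMT1 cells at 72 h by less than the fold change needed for a call. Retn was 88.8, 100.5 and 109.6 FPKM in siCtrl and 77.5, 74.2 and 73.0 FPKM in siPRMT1 libraries, a log2 fold change of -0.42 (95% CI -0.59 to -0.24, adjusted p = 0.00282, edgeR). Lcn2 was 172, 177 and 159 FPKM in siCtrl and 131, 133 and 134 FPKM in siPRMT1 libraries, a log2 fold change of -0.36 (95% CI -0.50 to -0.21, adjusted p = 0.00253, edgeR). Both passed the adjusted p in all 6 fits that left out 1 library, and Retn was called in 1 of them, without siCtrl library 1, at -0.51.

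Agt, the most abundant of the group, was 321, 364 and 304 FPKM in siCtrl and 240.4, 288 and 298 FPKM in siPRMT1 libraries. The libraries did not overlap, but the log2 fold change of -0.27 (95% CI -0.46 to -0.08) had an adjusted p of 0.0532 with edgeR. Nampt was 72.3, 61.5 and 69.35 FPKM in siCtrl and 74.6, 63.6 and 59.6 FPKM in siPRMT1 libraries. Its log2 fold change of -0.04 had a 95% CI of -0.23 to 0.14 (adjusted p = 0.770, edgeR), so a decrease as large as that of Adipoq lay outside the interval. For Lep the 24 counts in siPRMT1 and 31 in siCtrl cells gave a ratio of 0.632 (95% counting interval 0.355 to 1.1, exact permutation test of the FPKM p = 0.2, two-sided), and a difference was not detectable at this depth. With 3 libraries against 3, the smallest p of that permutation test is 0.1.

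**Figure D3:**
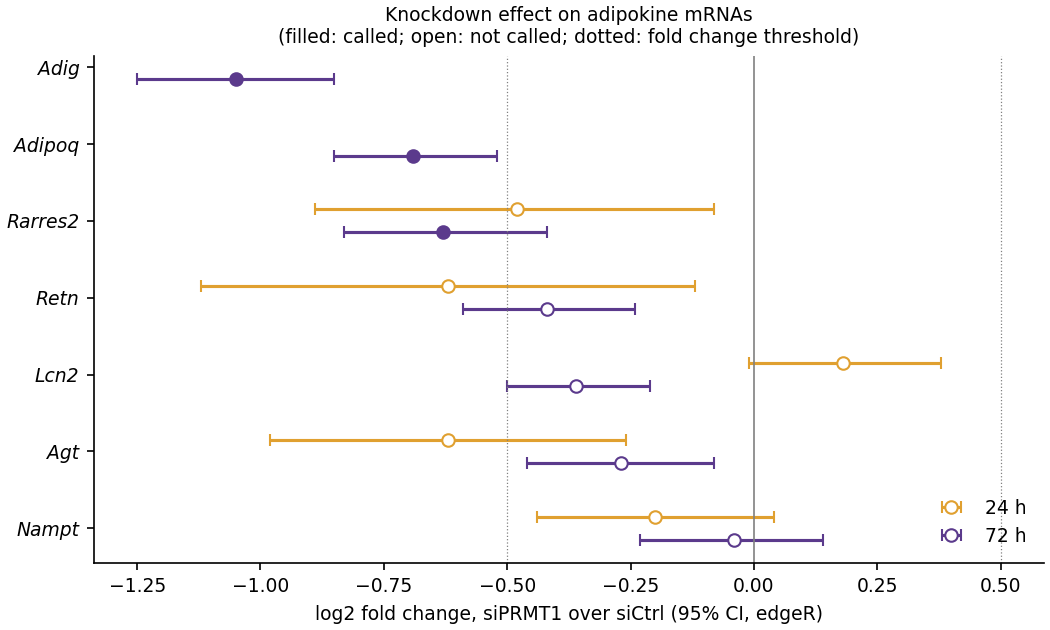
Log2 fold change of each tested adipokine in siPRMT1 over siCtrl cells (x axis) with its 95% confidence interval from edgeR, at 24 h (orange) and 72 h (purple). Filled points were called, open points were not, and the dotted lines mark the fold change threshold of 0.5 in either direction. At 72 h all 7 points lie left of 0, from -1.05 for Adig to -0.04 for Nampt, and only the 3 leftmost are filled. At 24 h Lcn2 alone lies to the right, at 0.18.

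The marker lists moved beside these genes at 72 h. Of the 6 adipocyte markers, 3 were called, all lower (Plin1 at -0.71, Lipe at -0.61 and Cidec at -0.54, log2), with a median log2 fold change of -0.51 and a summed level of 1970 to 2170 FPKM in siPRMT1 against 2530 to 2700 FPKM in siCtrl libraries. Of the 5 preadipocyte markers, 2 were called, both higher (Ly6a at 0.96 and Pdgfra at 0.60), and the 5 summed to 128 to 146 against 96.0 to 102 FPKM. Dlk1 at -0.07, Thy1 at 0.11 and Cd34 at 0.82 were not called, and Cd34 was at most 0.20 FPKM at 72 h. In bulk RNA, fewer adipocytes and less adipokine mRNA per adipocyte cannot be told apart. The part of the markers in the adipokine values was not tested. Markers of other cell types were low: macrophage markers (Adgre1, Csf1r, Cd68, Ptprc, Itgam, Lyz2) summed to 2.38 to 3.02 FPKM over the 12 libraries with Ptprc at 0, endothelial markers (Pecam1, Cdh5, Kdr, Tek) to at most 0.880 FPKM, and hepatocyte markers (Alb, Ttr, Apoa1, Serpina1a) to at most 0.470 FPKM.

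At 24 h, 0 of the 5 adipokines tested were called, against 1.61% of 13689 genes called lower and 1.95% called higher. At an unadjusted p under 0.05 there were 3, Retn, Rarres2 and Agt, and DESeq2 called 1, Agt, with no share of all genes taken at these settings. All 3 siPRMT1 libraries lay below all 3 siCtrl libraries for these 3 genes and above them for Lcn2, where 11.9% of all genes tested lay below and 19.8% above without overlap.

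Agt came closest to a call. It was 31.2, 31.4 and 44.0 FPKM in siCtrl and 22.8, 20.7 and 28.3 FPKM in siPRMT1 libraries, with a log2 fold change of -0.62 (95% CI -0.98 to -0.26, adjusted p = 0.0504, edgeR). In both groups library 3 was the highest. Without siCtrl library 3, the log2 fold change of Agt was -0.45 (adjusted p = 0.00485, edgeR), now past the adjusted p but under the fold change threshold. Over 10 other settings that left out no library the adjusted p of Agt ran from 0.00258 to 0.188, and 6 of them called it.

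Retn was 0.90, 1.12 and 0.99 FPKM in siCtrl and 0.63, 0.78 and 0.58 FPKM in siPRMT1 libraries, from 18 to 49 counts each. Its log2 fold change at 24 h was -0.62 (95% CI -1.12 to -0.12, adjusted p = 0.124, edgeR). Rarres2 was 4.83, 5.52 and 6.09 FPKM in siCtrl and 4.38, 3.09 and 4.64 FPKM in siPRMT1 libraries, a log2 fold change of -0.48 (95% CI -0.89 to -0.08, adjusted p = 0.138, edgeR). Nampt overlapped between the groups, at 31.2, 29.1 and 24.35 FPKM in siCtrl and 25.3, 27.1 and 24.2 FPKM in siPRMT1 libraries (log2 fold change -0.20, adjusted p = 0.286, edgeR). Without siCtrl library 3, where Nampt was lowest among the controls, its log2 fold change was -0.30 (adjusted p = 0.00389, edgeR). For Retn and Rarres2 the values without that library were -0.62 (adjusted p = 0.0857) and -0.41 (adjusted p = 0.0976).

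Adipoq and Adig were under the filter on low counts at 24 h. Adipoq had 10, 10 and 12 counts in siCtrl libraries (0.19, 0.38 and 0.46 FPKM) and 1, 4 and 2 counts in siPRMT1 libraries (0.03, 0.12 and 0.07 FPKM), with no overlap. The ratio of siPRMT1 to siCtrl was 0.250 (95% counting interval 0.0931 to 0.576), and the two-sided exact permutation test of the FPKM gave p = 0.1, the smallest that 3 against 3 libraries allow. Adig had 2, 2 and 1 counts in siCtrl and 1, 1 and 0 counts in siPRMT1 libraries, a ratio of 0.457 with a counting interval of 0.0435 to 2.79, which allows either direction. The ratio was 0.300 (0.107 to 0.738) for Adipoq and 0.428 (0.0387 to 2.99) for Adig without siCtrl library 3.

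**Figure D4:**
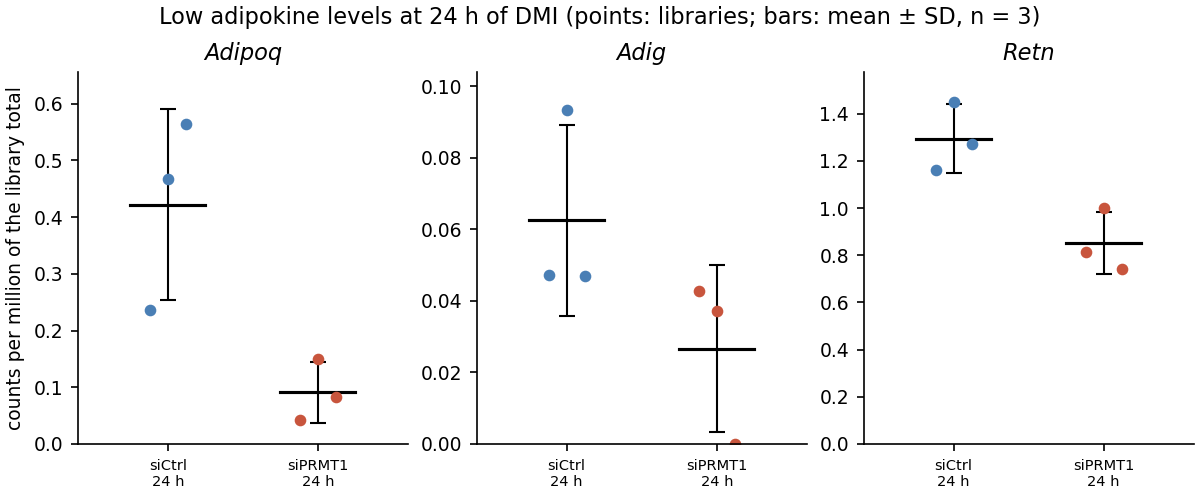
CPM, counts scaled to the library total (y axis, from 0), at 24 h for Adipoq, Adig and Retn, the adipokines with the fewest counts there apart from Lep and Rbp4, with 1 point per library and bars for the mean ± SD of 3 libraries. The siPRMT1 points of Adipoq and Retn lie below all siCtrl points, and each Adig point stands for 2 counts or fewer.

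At 24 h, 2 of the 6 adipocyte markers were called, both lower in siPRMT1 cells (Cidec at -0.90 and Cd36 at -0.65, log2), with a median log2 fold change of -0.58, against 0.0096 over all genes. Their sum was 88.5 to 102 FPKM against 112 to 119 FPKM in siCtrl libraries. Of the 5 preadipocyte markers 0 were called by edgeR and 0 by DESeq2, with 2 lower at an unadjusted p under 0.05, and their sum was 537 to 569 against 585 to 615 FPKM. Of a list of interferon response genes that includes Rtp4, Oasl2, Ifit1, Ifit3, Isg15, Irf7 and Cxcl10, 5 of 7 tested were called higher in siPRMT1 cells at 24 h and 3 of 7 at 72 h. Their summed level was 40.3 to 50.5 against 23.2 to 25.1 FPKM at 24 h and 36.8 to 38.4 against 37.2 to 40.5 FPKM at 72 h. Their part in the adipokine values was not tested.

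Lcn2 was the 1 adipokine whose response to the knockdown was called different between 24 h and 72 h. At 24 h it was 135, 138 and 151 FPKM in siCtrl and 155, 158 and 187 FPKM in siPRMT1 libraries, a log2 fold change of 0.18 (95% CI -0.01 to 0.38, adjusted p = 0.226, edgeR) that was not called. Without siCtrl library 3 it was 0.23 (adjusted p = 0.0332, edgeR), still under the fold change threshold. At 72 h the siPRMT1 libraries lay below the siCtrl libraries, as given above. The interaction of siRNA and time, which tests the difference between the effects at the 2 times, was -0.52 on the log2 scale (95% CI -0.76 to -0.28, adjusted p = 0.00772, edgeR). Among the 5 adipokines with at least 10 counts in every library, 1 was called lower and 0 higher, also by DESeq2. Over all 14612 genes tested, 3.47% were called lower and 4.77% higher. Adipoq and Adig were fitted too but passed the filter on low counts only through their 72 h libraries, so they are not counted. Adipoq was higher at an unadjusted p under 0.05 and was not called. Without siCtrl library 3 at 24 h the interaction was -0.60 (adjusted p = 6.9e-04, edgeR). The adjusted p stayed under 0.05 in all 12 fits that left out 1 library, and 9 of them were called. In the other 3, without siCtrl library 1 at 24 h, siPRMT1 library 3 at 24 h or siCtrl library 2 at 72 h, the fold change fell short of the threshold, and the smallest value was -0.44.

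For the other adipokines with counts in every library the interaction was 0.37 for Agt (95% CI -0.04 to 0.79, adjusted p = 0.238, edgeR), 0.21 for Retn (95% CI -0.26 to 0.67, adjusted p = 0.627), 0.17 for Nampt (95% CI -0.13 to 0.47, adjusted p = 0.468) and -0.13 for Rarres2 (95% CI -0.55 to 0.30, adjusted p = 0.730). With all libraries, the intervals of Agt, Retn and Rarres2 include differences as large in size as that of Lcn2, and the interval of Nampt does not. Without the siCtrl library that stood apart at 24 h, the interaction of Agt was 0.16 (SE 0.150, adjusted p = 0.458, edgeR). The statement for Agt is thus limited to the fit with all libraries. The other values without that library were 0.17 for Retn (SE 0.257), 0.24 for Nampt (SE 0.119) and -0.24 for Rarres2 (SE 0.196). None of these was called. Adipoq and Adig had too few counts at 24 h for an error of the interaction.

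The 250 bases before the start site are shown for Adipoq and Adig, which fell together at 72 h, and for Lcn2, whose effect changed with time. The sequences are from RefSeq on GRCm38.p6, on the strand of each gene from 5′ to 3′. Adipoq lies at chr16:23146286-23146535 (plus strand), Adig at chr2:158502362-158502611 (plus strand) and Lcn2 at chr2:32387740-32387989 (minus strand). Capitals mark matches, on either strand, to 4 patterns that resemble known binding sites: the C/EBP-like TTGCNNAA, a PPARγ-like direct repeat of AGGNCA with 1 base between the copies, the NF-κB-like GGG and TCC with 4 bases between, and the TATA box TATAAA.

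Adipoq: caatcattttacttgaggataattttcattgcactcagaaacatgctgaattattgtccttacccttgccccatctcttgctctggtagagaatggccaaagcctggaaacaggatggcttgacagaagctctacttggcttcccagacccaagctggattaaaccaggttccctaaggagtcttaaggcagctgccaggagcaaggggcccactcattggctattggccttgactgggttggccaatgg

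Adig: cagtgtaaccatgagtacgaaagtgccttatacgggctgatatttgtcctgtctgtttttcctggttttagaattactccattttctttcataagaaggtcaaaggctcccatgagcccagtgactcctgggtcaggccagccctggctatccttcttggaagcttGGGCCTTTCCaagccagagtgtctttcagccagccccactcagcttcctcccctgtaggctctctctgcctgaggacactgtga

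Lcn2: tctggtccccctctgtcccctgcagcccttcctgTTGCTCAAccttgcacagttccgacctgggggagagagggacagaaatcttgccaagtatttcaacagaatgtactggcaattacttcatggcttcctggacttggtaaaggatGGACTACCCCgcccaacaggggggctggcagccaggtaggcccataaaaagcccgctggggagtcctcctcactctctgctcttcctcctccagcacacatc

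In the Lcn2 window the C/EBP-like pattern begins 216 and the NF-κB-like pattern 102 bases before the start. The Adig window holds the NF-κB-like pattern 84 bases before the start, and none of the 4 patterns was in the Adipoq window. Windows were at hand for 8 of the 9 adipokines. Of the others, Agt had a TATA box 30 bases and Lep a C/EBP-like match 55 bases before the start, Retn and Nampt had no match, and Rbp4 had matches before its second start site. Over 32851 windows of 250 bases, 9.56% held the C/EBP-like, 0.338% the direct repeat, 16.5% the NF-κB-like and 12.4% the TATA pattern, so each match is a description of the letters only.

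Genes around the adipokines were followed as lists. Of 16 receptors and receptor partners of the adipokines, 7 were tested at 24 h, with 1 called, and 8 at 72 h, with 0 called in edgeR and 0 in DESeq2. At an unadjusted p under 0.05, 2 of the 8 were higher and 2 lower at 72 h. The call at 24 h was Agtr2, an angiotensin II receptor, which was 0.670 ± 0.128 FPKM in siCtrl and 0.370 ± 0.0458 FPKM in siPRMT1 cells (log2 fold change -0.93, SE 0.215, adjusted p = 0.0376, edgeR). The median log2 fold change of the list was -0.34 at 24 h and -0.05 at 72 h. The adiponectin receptors were named after their values were seen. Adipor2 was 69.4 ± 4.95 FPKM in siCtrl and 54.6 ± 0.638 FPKM in siPRMT1 cells at 24 h (log2 fold change -0.39, adjusted p = 0.0135, edgeR), and 188 ± 3.81 and 149 ± 7.60 FPKM at 72 h (-0.33, adjusted p = 0.00372), under the fold threshold at both times. Adipor1 was at 43.0 to 50.1 FPKM in the 4 group means and passed the adjusted p at neither time with all libraries. Without the siCtrl library that stood apart at 24 h, Adipor1 passed it at that time (log2 fold change 0.20, adjusted p = 0.0155, edgeR). Adipor2 was then at -0.35 (adjusted p = 4.5e-04, edgeR), and both stayed under the fold threshold.

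Of 14 genes for the folding, modification and release of adipokines, all were tested at both times, and 1 was called at 24 h and 2 at 72 h. Ero1l, an oxidase of the endoplasmic reticulum that is needed for adiponectin assembly, was higher in siPRMT1 cells at 24 h and lower at 72 h. It was 31.0 ± 4.37 FPKM in siCtrl and 55.9 ± 8.23 FPKM in siPRMT1 cells at 24 h (log2 fold change 0.80, SE 0.135, adjusted p = 0.0143, edgeR). At 72 h it was 70.8 ± 10.7 and 35.5 ± 4.40 FPKM (-1.0, SE 0.103, adjusted p = 1.4e-05). The other call at 72 h was Sort1, a sorting receptor of the secretory pathway, which fell from 16.6 ± 0.0656 to 10.9 ± 0.323 FPKM at 72 h (-0.62, adjusted p = 1.8e-05, edgeR). The median log2 fold change of the list was -0.09 at 24 h and -0.12 at 72 h.

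Angiotensinogen is cut by a chain of peptidases, and of 12 genes of that chain, the renin receptor Atp6ap2 included, 7 were tested at 24 h and 9 at 72 h. At 24 h Anpep fell by 0.78 on the log2 scale (adjusted p = 0.0190, edgeR) from 5.91 ± 1.2 to 3.55 ± 0.288 FPKM, the 1 call of the list. At 72 h Enpep fell by 1.03 (adjusted p = 0.0209, edgeR) from 0.377 ± 0.121 to 0.173 ± 0.0321 FPKM, again the 1 call. The medians were -0.40 and -0.04. Of 14 genes of NAD metabolism, to which Nampt belongs, 10 were tested at 24 h and 11 at 72 h. At 24 h 2 rose, the NAD hydrolase Cd38 (adjusted p = 0.0235, edgeR), which was at most 0.48 FPKM, and the NAD synthase of the nucleus Nmnat1 (log2 fold change 0.73, adjusted p = 0.0301). At 72 h 2 fell, Nmnat1 by 0.66 (adjusted p = 0.00771, edgeR) and Nudt12 by 0.50 (adjusted p = 0.00322). Nampt itself was called at neither time.

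Sequence relatives of the adipokines were mostly silent. Of 32 listed C1q/TNF proteins, resistin-like molecules, retinol carriers, lipocalins and serpins, 30 were in the table and 12 had 0 counts in all libraries. Of the 12 tested at 24 h, 0 were called by edgeR and 0 by DESeq2, with 2 higher and 2 lower at an unadjusted p under 0.05, and of the 11 tested at 72 h, 2 rose. Among them was Apod, a lipocalin as Lcn2 is, which rose from 8.18 ± 0.821 to 15.2 ± 1.28 FPKM (log2 fold change 0.88, adjusted p = 2.0e-05, edgeR). Other lipocalins were not called: Orm1 was at -0.30 (adjusted p = 0.0244, edgeR) and Orm2 at -0.39 (adjusted p = 0.0573), and since these paralogs are near copies their counts are uncertain.

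Of 16 transcription factors known to act on adipokine genes, 15 were tested at 24 h and 3 were called, all lower. Pparg fell by 0.52 on the log2 scale (adjusted p = 0.00659, edgeR) from 26.6 ± 1.73 to 19.2 ± 0.804 FPKM. Cebpa fell by 0.88 (adjusted p = 0.0156, edgeR) from 18.8 ± 4.53 to 10.6 ± 0.723 FPKM, and the lipid-sensing receptor Nr1h3 by 0.64 (adjusted p = 0.0305) from 2.69 ± 0.286 to 1.78 ± 0.187 FPKM. At 72 h 16 were tested and 2 were called, both lower. Klf15 fell by 1.27 (adjusted p = 4.2e-06, edgeR) from 2.91 ± 0.105 to 1.22 ± 0.153 FPKM and Nr1h3 by 0.64 (adjusted p = 4.1e-05) from 42.9 ± 2.15 to 27.6 ± 1.90 FPKM. Pparg and Cebpa passed the adjusted p at 72 h too, with all siPRMT1 libraries lower, but stayed under the fold threshold, at -0.30 (adjusted p = 0.00407, edgeR) and -0.46 (adjusted p = 4.0e-04). The medians of the list were -0.01 and -0.14, against 0.0096 and 0.0073 over all genes tested.

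Of the calls at 24 h named above from these lists and the adipocyte markers, all but Pparg were made in the same direction without siCtrl library 3. Pparg was then at -0.48 (adjusted p = 1.2e-04, edgeR), under the fold threshold. Ero1l was at 0.68, Agtr2 at -1.06, Anpep at -0.61, Cebpa at -0.68, Nr1h3 at -0.57, Nmnat1 at 0.75, Cd38 at 1.42, Cidec at -0.64 and Cd36 at -0.69 on the log2 scale, with adjusted p from 5.8e-05 for Cebpa to 0.0123 for Nmnat1. Calls were gained for the receptor Tlr4 (-0.65), the factor Cebpb (0.59), the peptidase Lnpep (-0.67), the retinol binder Rbp2 (0.89) and the interferon regulator Irf7 (0.76). Interferon response genes were then called higher in 6 of 7.

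**Figure D5:**
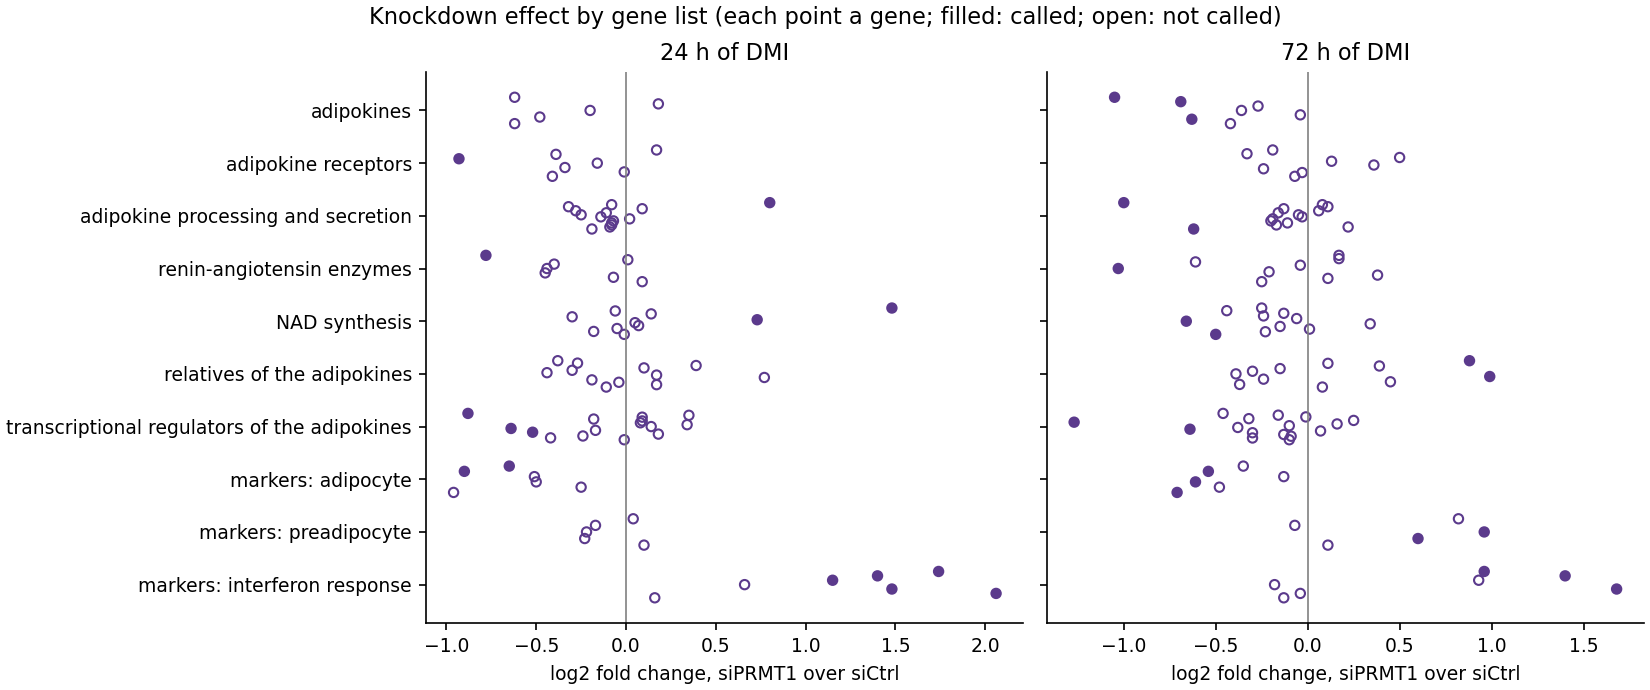
Log2 fold change of siPRMT1 over siCtrl cells (x axis) for each tested gene of the adipokines and of the lists around them (rows) at 24 h (left) and 72 h (right), with 1 point per gene. Filled points were called and open points were not. At 72 h the 3 called adipokines lie left of 0 with the 3 called adipocyte markers, and the called preadipocyte and interferon response genes lie to the right.

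The genes whose profile over the 12 libraries was most like that of each adipokine were found by the root mean square difference of log2 CPM, each centred on its own mean, over 12461 genes. Adipoq, with a range of 11.2 log2 units over the libraries, was closest to Mrap (0.602) and A530016L24Rik (0.747). Adig was closest to Cfd (0.414), which encodes the adipokine adipsin, and to the lipid droplet gene Cidec (0.439), and Retn to the fatty acid transporter Cd36 (0.236). At 24 h no library held more than 12 counts of Adipoq or 2 of Adig. That part of their profiles, their ranges and their nearest genes are thus uncertain. Agt was closest to Sh3tc1 (0.114), Rarres2 to Lfng (0.142), Nampt to Prkar2b (0.0766) and Lcn2 to Slc41a1 (0.0567). The range of Lcn2 was 0.503 log2 units, so many genes with little change lie near it, and the measure describes these 12 libraries only.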

How the data were processed

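RNA sequencing of 3T3-L1 cells gave 12 libraries in 4 groups of 3. Per the labels and the methods, libraries were made with an MGIEasy mRNA kit, reads were trimmed with cutadapt 1.11 and mapped with HISAT2 2.1.0 to mouse reference transcripts, and the submitters' processing notes also name RSEM 1.2.6 and mm10. The authors deposited a table of counts per gene, whole numbers without normalization, and a table of FPKM, which the authors scaled by gene length and library total (rebuilt here to within 0.00500). The counting tool, its strand setting and its handling of multi-mapping reads are not given in the sources used here.

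Counts were tested with edgeR 4.0.16 (quasi-likelihood, TMM, filterByExpr, R 4.3.3) over all genes, for siPRMT1 against siCtrl at 24 h and at 72 h, for 72 h against 24 h with each siRNA, and for the interaction over 12 libraries. Adjusted p are Benjamini-Hochberg values over all genes tested, the thresholds are those of the study, and SEs were derived from the fold change and its F statistic. Shares over all genes were taken for the edgeR calls and for groups without overlap, not for unadjusted p or DESeq2. Fitted errors are not given where a group held under 50 counts. There, counts summed over a group and scaled by library totals were compared, with exact binomial intervals. Alternatives were DESeq2 1.42.0, RLE normalization, other filters, limma 3.58.1 on log2(FPKM + 1) or with a pseudocount of 0.1 (mean FPKM of 1 or more, or no filter), a replicate block, 1 model of all libraries, no fold threshold, and each library left out. For the lists, and for the count ratios of Adipoq and Adig, siCtrl library 3 at 24 h was left out as an alternative chosen after seeing the data. On simulated counts with 200 genes changed by a log2 fold change of 1, edgeR recovered 188 at 24 h (3 false calls) and 176 at 72 h (1 false call). For the interaction, 200 genes were given a larger change, in the siPRMT1 group at 72 h only. There edgeR recovered 175 (11 false calls), and a change as small as that of Lcn2 was not simulated.

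The 9 adipokines and all lists of other genes were chosen with earlier results of these data known. Of each list, no more than the 3 most significant calls per time point are named, and some genes that entered the list counts are not reported here by name. Like profiles were ranked over genes with a mean CPM of 1 or more, and the 3 nearest were found for each adipokine. Promoter windows are RefSeq sequences of GRCm38.p6.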

Additional observations from a re-analysis of the deposited data

Results flagged for a closer look

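Lcn2 stood out because the effect of PRMT1 knockdown on it differed between 24 h and 72 h by a test of the difference itself. The interaction of siRNA and time was -0.52 on the log2 scale (SE 0.112, adjusted p = 0.00772, edgeR), from 0.18 at 24 h, which was not called, to -0.36 at 72 h. The siPRMT1 libraries were higher in 3 of 3 at 24 h and lower in 3 of 3 at 72 h, each against all siCtrl libraries of the same time. Over all genes tested, 19.8% lay above without overlap at 24 h and 17.5% below at 72 h. The interaction was called lower for 3.47% and higher for 4.77% of 14612 genes. Of the 6 adipocyte markers, 2 were called at 24 h and 3 at 72 h, all lower in siPRMT1 cells, while the summed interferon response genes were 40.3 to 50.5 against 23.2 to 25.1 FPKM at 24 h and 36.8 to 38.4 against 37.2 to 40.5 FPKM at 72 h. Their part in the Lcn2 values was not tested.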

How the results depend on the processing

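The knockdown calls at 72 h, 3 adipokines lower, became 5 with no threshold on the fold change, where Retn and Lcn2 were added, and Adig, Adipoq and Rarres2 were called under every alternative run. At 24 h the count of adipokines called lower was 0. It was 1, Agt, with DESeq2, with RLE normalization, without a filter on low counts and with at least 10 counts in every library. It was 3 with all 12 libraries in 1 model, which called Adipoq, Agt and Rarres2. Leaving out each library in turn gave 0 to 1, the 1 being Adipoq without siCtrl replicate 1. The interaction call of Lcn2 became 0 without a filter on low counts, where its fold change was under the threshold, and 0 to 1 with each library left out. In siPRMT1 cells 72 h against 24 h, 0 adipokines lower became 1, Lcn2, with no threshold on the fold change. The log2 fold change of Nampt at 72 h turned from -0.04 to 0.02 without siPRMT1 replicate 3 (-0.15 to 0.02 over the libraries left out), and the interaction of Retn from 0.21 to -0.13 on log2(FPKM + 1), with and without a filter. Except where the alternative's own construction shows it, the cause was not tested.

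Replicates of the same number did not deviate together in all pairs (correlations of deviations from the group means between -0.17 and 0.22), so the number is not taken as a pairing. With the replicate block, 1 adipokine was called lower at 24 h, Agt (log2 fold change -0.61, adjusted p = 0.00438, edgeR), and no other call changed. Leaving out a library keeps at least 2 per group.

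Depth limited Lep at both times and Adipoq and Adig at 24 h, where groups held 0 to 32 counts. All 9 adipokines share the same 12 libraries, and the siCtrl libraries serve the knockdown and the time comparisons, so these results are not independent of each other.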

Other observations

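Several genes of the lists around the adipokines, named here after their values were seen, also responded differently to the knockdown at 24 h and 72 h. The interaction was called higher for 2 of 9 receptors tested and lower for 1 of 14 folding and release genes. It was called higher for 1 of 10 genes of the angiotensinogen chain and lower for 2 of 11 NAD genes. Among 12 sequence relatives 2 were called higher and 1 lower, and among 16 transcription factors 1 lower. Over all 14612 genes tested, 4.77% were called higher and 3.47% lower. Not every call of these lists is named, and some genes counted here passed the filter on low counts through the libraries of 1 time only. Ero1l, the oxidase needed for adiponectin assembly, had an interaction of siRNA and time of -1.78 on the log2 scale (SE 0.185, adjusted p = 3.8e-05, edgeR), a larger change of direction than that of Lcn2. The NAD synthase Nmnat1 moved the same way as Ero1l, with an interaction of -1.37 (SE 0.220, adjusted p = 0.00119, edgeR). Interactions of the opposite sign were found for Apod, a lipocalin, at 1.29 (SE 0.141, adjusted p = 5.4e-05, edgeR), and for the peptidase Anpep, at 0.97 (SE 0.218, adjusted p = 0.0102).

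Among receptors, Agtr2 had an interaction of 1.45 (SE 0.250, adjusted p = 0.00207, edgeR), from 0.370 ± 0.0458 FPKM in siPRMT1 cells at 24 h to 0.947 ± 0.0651 FPKM at 72 h, while siCtrl cells were at 0.670 ± 0.128 and 0.663 ± 0.0404 FPKM. Cdh13, the receptor of the large forms of adiponectin, had an interaction of 0.72 (SE 0.137, adjusted p = 0.00402, edgeR). It was 53.9 ± 6.12 FPKM in siCtrl and 44.1 ± 2.16 FPKM in siPRMT1 cells at 24 h, and 19.0 ± 1.19 and 24.4 ± 2.91 FPKM at 72 h. Without siCtrl library 3 at 24 h all 6 interactions were called in the same direction, at -1.70 for Ero1l, -1.43 for Nmnat1, 1.19 for Apod, 0.77 for Anpep, 1.54 for Agtr2 and 0.59 for Cdh13 (adjusted p from 3.3e-06 for Ero1l to 0.00486 for Anpep, edgeR).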
